A study of Homo sapiens with 30 samples.

Results

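The 10 genes described here encode the enzymes that hydroxylate collagen inside the cell and crosslink it outside: the prolyl 4-hydroxylase alpha subunits P4HA1 and P4HA2, the lysyl hydroxylases PLOD1, PLOD2 and PLOD3, and the lysyl oxidases LOX, LOXL1, LOXL2, LOXL3 and LOXL4. They were taken by name from a table of 60675 gene entries, with no measured value in the rule, and all 10 were found and passed the filter on low counts in every fit. The set itself was chosen with earlier results of these data known, so counts of its called genes are descriptions. RNA was sequenced from SW1783, a human astrocytoma cell line, after 24 h with ethanol extracts of herbal decoctions at 20, 100 or 500 µg/mL. Each concentration was represented by 3 libraries for Soshiho-tang, 3 for Yijin-tang, 2 for Okbyeongpung-san and 1 for Soyo-san. The 3 vehicle libraries received DMSO, at 0.1% in the sample labels and at 2% in the series description, a difference that was not settled. All groups were the same line in the same medium, so every comparison is within 1 cell line. Water extracts and a wortmannin control, which the series description also lists, were not analysed here.

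Newly made collagen chains are hydroxylated in the endoplasmic reticulum by enzymes that need iron, 2-oxoglutarate, oxygen and ascorbate. Prolyl 4-hydroxylase makes the hydroxyproline that keeps the triple helix stable at body temperature, and lysyl hydroxylases make the hydroxylysine on which sugars and stable crosslinks are built. After secretion, the copper-dependent lysyl oxidases turn lysine and hydroxylysine side chains into aldehydes, which then join neighbouring collagen or elastin molecules. P4HA1, P4HA2, PLOD2 and LOX are textbook targets of the hypoxia-inducible factors, and several of these enzymes are induced by TGF-beta in fibroblasts and tumour cells.

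The libraries had total estimated counts of 23.9 to 33.1 M, with a median of 27.4 M (M for the mega prefix). Levels are given as CPM (counts scaled to library size) after scaling with edgeR's TMM factors, and a level of 1 CPM stood for about 23.9 reads or more. The labels do not say that replicates were separate cultures, so the p-values measure the spread between libraries, which may be technical. No pair of replicates agreed within sampling noise: their chi-square per degree of freedom ran from 3.21 to 39.5 over 24 pairs. The third library of Yijin-tang at 500 µg/mL stood apart from its replicates (39.5 and 23.5, against 4.3 between the other 2) and had 10.6% mitochondrial counts against 6.7% and 7.35%. For several calls that rest on this group, a value or a count of calls without that library is also given. Vehicle libraries formed a library set of their own, with 10.5 to 10.7% mitochondrial counts, and the Okbyeongpung-san libraries were in other sets again, in 2 batches by label. The astrocyte markers GFAP, S100B, AQP4 and SOX2 were at or below 0.252 CPM in all 30 libraries, whereas VIM was at 3754 to 5589, COL1A1 at 1557 to 4039 and FN1 at 3028 to 4889 CPM. NES, a further glial marker, was at 4.68 to 16.3 CPM. Markers of other lineages were mixed: CDH5, CDH1, EPCAM, CD3E and ITGAM stayed at or below 0.288 CPM, while CD68 was at 122 to 245, KRT18 at 49.1 to 153 and KDR at 31.3 to 44.0 CPM. The leukocyte marker PTPRC was at 4.18 to 12.9 CPM. Of the neuronal markers, SNAP25 was at 15.7 to 30.4 and SYT1 at 19.5 to 31.2 CPM. MAP2 and NEFL reached at most 11.3 and 3.94 CPM, and RBFOX3 0.388. In such bulk samples, fewer cells of a kind and less RNA per cell cannot be told apart.

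Per kilobase of exon, LOXL2 was the most abundant of the 10 transcripts in vehicle-treated cells, at 205 ± 6.57 RPKM (SD, n = 3), and LOXL4 the least, at 0.771 ± 0.0259. LOXL2, a lysyl oxidase that also acts on basement membrane collagen, lies at 8:23297189-23425328 on the minus strand (GRCh38, GENCODE release 29). PLOD1, which hydroxylates lysines of the triple helix, came next at 119 ± 3.13 RPKM (1:11934205-11975538, plus strand). P4HA1, the alpha subunit of the main prolyl 4-hydroxylase, stood at 71.0 ± 0.712 RPKM (10:73007217-73096974, minus strand). LOXL1, an elastic fibre crosslinker, was at 61.2 ± 2.5 RPKM (15:73925989-73952137, plus strand) and overlapped in range with PLOD3 at 59.0 ± 2.72 RPKM (7:101205977-101218420, minus strand). The PLOD3 product also glucosylates collagen. PLOD2, the lysyl hydroxylase of the collagen telopeptides, was at 38.3 ± 1.11 RPKM (3:146069440-146163653, minus strand).

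The last 4 genes were lower. LOX, the founding lysyl oxidase, was at 20.3 ± 0.893 RPKM (5:122063195-122078360, minus strand) and P4HA2, the second prolyl 4-hydroxylase alpha subunit, at 15.6 ± 0.517 (5:132191838-132295315, minus strand). LOXL3, needed for collagen of the palate and spine, was at 7.12 ± 0.394 RPKM (2:74532414-74555690, minus strand), and LOXL4, a further lysyl oxidase, lies at 10:98247690-98268250 on the minus strand. Apart from LOXL1 and PLOD3, neighbours in this order did not overlap in the vehicle libraries. All 10 are annotated as protein-coding genes, and the values cover all their exons.

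**Figure D1:**
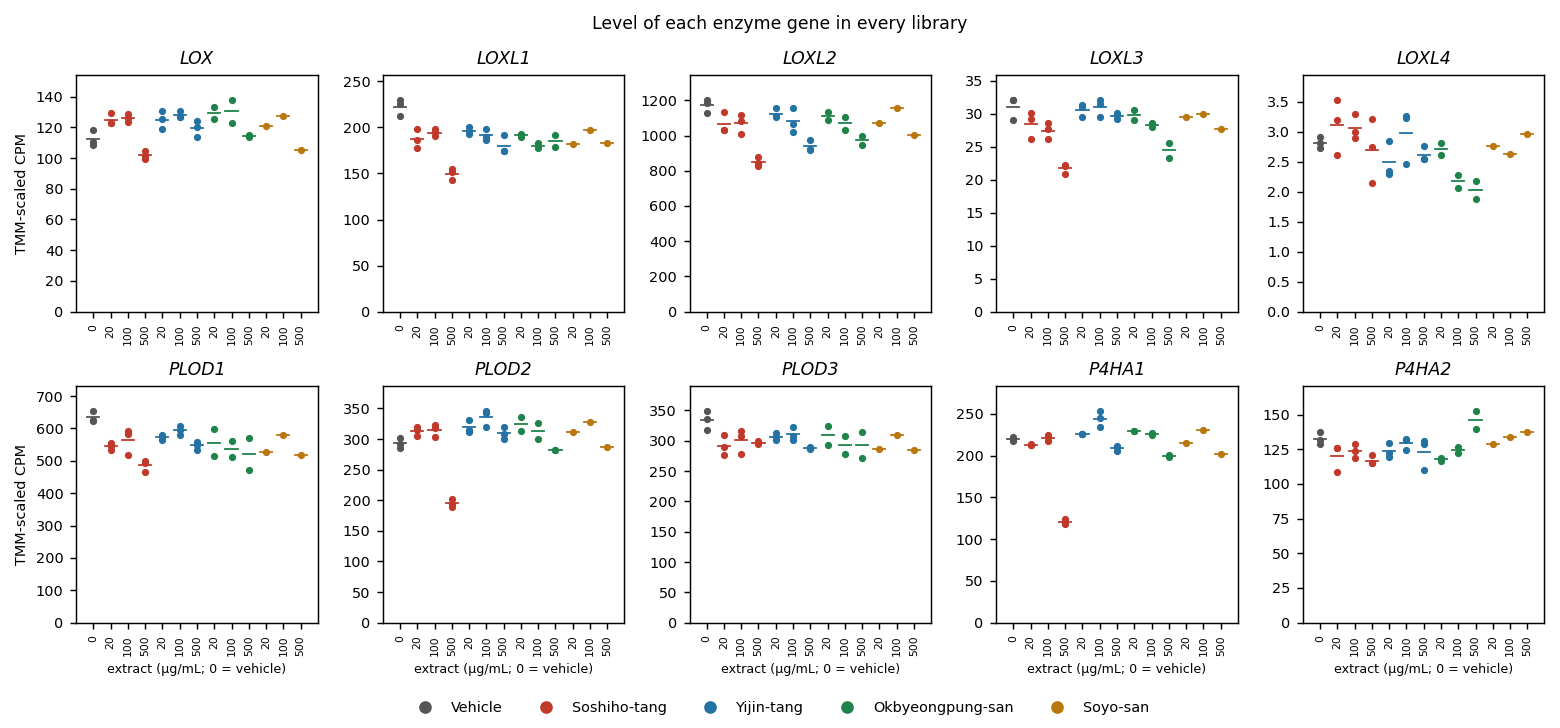
TMM-scaled CPM (vertical axis, from 0, 1 panel per gene) in each of the 30 libraries by extract and concentration (horizontal axis, µg/mL, 0 is vehicle). Points are libraries and bars are group means; P4HA1 and PLOD2 stand apart at 500 µg/mL of Soshiho-tang, at 118 to 124 and 189 to 203 CPM.

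Most of the set was lower at 500 µg/mL of Soshiho-tang. Against 20 µg/mL of the same extract, 7 of the 10 genes fell and none rose (edgeR quasi-likelihood test, Benjamini-Hochberg adjusted over 16872 genes), where 14.2% of all genes tested fell and 14.6% rose. The median log2 fold change was -0.31 over the 10 genes and 0.01 over all genes tested. P4HA1 and PLOD2 fell by more than the other members, all of whose changes were smaller than 0.4 on the log2 scale. With library totals in place of TMM, 63.5% of all called genes were higher rather than 50.6%, and 6 of the 10 genes were still called lower.

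For P4HA1, the 3 libraries at 20 µg/mL gave 213, 214 and 213 CPM and the 3 at 500 µg/mL gave 124, 118 and 119. The groups were far apart, and the libraries at 20 µg/mL differed among themselves by less than 2 CPM. This was a fall of 1.77-fold (log2 -0.82 ± 0.04 SE, adjusted p = 7.4e-13). P4HA2, which can replace P4HA1 in the enzyme, was not called: its libraries gave 126, 126 and 109 CPM at 20 µg/mL and 115, 115 and 121 at 500. The 2 groups overlapped, with a log2 difference of -0.04 ± 0.06 and an adjusted p of 0.68.

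PLOD2 gave 319, 315 and 305 CPM at 20 µg/mL and 203, 189 and 193 at 500 µg/mL. All 3 libraries at 500 lay more than 100 CPM below the lowest at 20, a fall of 1.6-fold (log2 -0.68 ± 0.05, adjusted p = 2.5e-10). The other lysyl hydroxylases moved little. PLOD1 gave 545, 533 and 556 CPM at 20 µg/mL and 501, 494 and 465 at 500; the groups were apart and its fall was small (log2 -0.16 ± 0.05, adjusted p = 0.014). That call was lost without the third Soshiho-tang library at 500 µg/mL (adjusted p = 0.086) or at 20 µg/mL (0.055), with library totals (0.074) and in the 27-library fit (0.072). PLOD3 overlapped between the groups, at 276 to 309 against 295 to 299 CPM (log2 0.03 ± 0.05, adjusted p = 0.75).

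The promoters of P4HA1 and PLOD2, the members with the largest falls, are printed here with those of P4HA2, the other alpha subunit, and of LOX, since all 4 are known hypoxia targets. Each window runs from 250 bases before to 50 after an annotated start (RefSeq, GRCh38.p14), 5′ to 3′ on the strand of the gene. Capitals mark the hypoxia response element core, ACGTG or GCGTG, or its reverse complement, CACGT or CACGC. P4HA1 is chr10:73096817-73097116, PLOD2 is chr3:146161135-146161434, P4HA2 is chr5:132227042-132227341 and the first LOX window is chr5:122078210-122078509, all on the minus strand.
P4HA1: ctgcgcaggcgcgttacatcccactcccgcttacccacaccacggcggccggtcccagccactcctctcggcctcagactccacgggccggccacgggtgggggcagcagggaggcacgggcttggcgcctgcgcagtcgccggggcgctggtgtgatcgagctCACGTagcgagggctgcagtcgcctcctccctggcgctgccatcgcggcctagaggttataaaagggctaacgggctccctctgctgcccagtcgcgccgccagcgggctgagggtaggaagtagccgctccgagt
PLOD2: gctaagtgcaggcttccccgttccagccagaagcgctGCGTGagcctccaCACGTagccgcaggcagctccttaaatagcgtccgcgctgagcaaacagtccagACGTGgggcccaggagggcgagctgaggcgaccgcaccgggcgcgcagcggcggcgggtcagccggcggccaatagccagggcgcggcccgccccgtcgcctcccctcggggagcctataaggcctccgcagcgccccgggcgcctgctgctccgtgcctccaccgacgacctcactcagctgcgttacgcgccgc
P4HA2: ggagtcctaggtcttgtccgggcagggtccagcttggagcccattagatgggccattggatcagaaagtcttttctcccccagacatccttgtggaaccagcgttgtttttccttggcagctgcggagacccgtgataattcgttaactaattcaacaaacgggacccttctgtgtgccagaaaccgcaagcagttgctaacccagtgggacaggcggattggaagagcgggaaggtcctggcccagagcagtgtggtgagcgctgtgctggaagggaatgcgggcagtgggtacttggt
LOX: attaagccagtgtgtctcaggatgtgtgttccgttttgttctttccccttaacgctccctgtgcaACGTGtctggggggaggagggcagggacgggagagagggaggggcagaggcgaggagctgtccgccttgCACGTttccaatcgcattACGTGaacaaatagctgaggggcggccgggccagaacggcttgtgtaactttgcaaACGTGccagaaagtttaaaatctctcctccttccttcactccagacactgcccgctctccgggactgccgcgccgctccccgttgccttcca
The P4HA1 window holds 1 match, starting 86 bases before the start, and the PLOD2 window holds 3, at 213, 200 and 146 bases before it. The LOX window holds 4 matches and the P4HA2 window none. Such matches are common: 48.4% of all 35116 promoter windows of this length hold at least 1 (21.4% for ACGTG and 36.5% for GCGTG, both strands), and 7 of the 12 windows of these genes do. Of the 9 genes with a window, 5 have a match in at least 1 of their windows. A match is a description of these letters and no measure of binding.

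Of the 5 lysyl oxidase genes, 4 fell with Soshiho-tang, each by less than 1.4-fold. LOXL3 gave 29.2, 26.1 and 30.1 CPM at 20 µg/mL and 20.83, 22.27 and 22 at 500, a fall of 1.31-fold (log2 -0.39 ± 0.06, adjusted p = 2.2e-05). LOXL1 gave 178, 186 and 199 CPM at 20 µg/mL and 152, 154 and 143 at 500 (log2 -0.33 ± 0.05, adjusted p = 3.1e-05). The groups did not overlap for either gene. LOXL2, the most abundant, gave 1033, 1030 and 1131 CPM at 20 µg/mL and 875, 843 and 826 at 500 (log2 -0.33 ± 0.05, adjusted p = 6.1e-05). LOX gave 123, 123 and 129 CPM at 20 µg/mL and 105, 99.1 and 101 at 500 (log2 -0.29 ± 0.05, adjusted p = 4.8e-05). Both were again apart in all 6 libraries. LOXL4, at 2.61 to 3.53 against 2.14 to 3.21 CPM, overlapped and was not called (log2 -0.21 ± 0.15, adjusted p = 0.32); at this low level its 95% interval ran from -0.51 to 0.08.

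Nothing of this was called at 100 µg/mL of Soshiho-tang. Against 20 µg/mL, 0 of 10 genes passed edgeR's test (0.0711% of all genes tested did), 0 had an unadjusted p under 0.05 and DESeq2 called 0. P4HA1 gave 225, 222 and 217 CPM at 100 µg/mL and PLOD2 323, 318 and 303, against 213 to 214 and 305 to 319 at 20 µg/mL. Mitochondrial counts were 6.94 to 7.79% at 500 µg/mL and 6.37 to 9.03% at 20, so the groups overlapped in that measure.

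Because the related enzymes moved unequally, their balance within a library differed between concentrations. The P4HA1 to P4HA2 ratio, from RPKM, was 4.9 ± 0.42 (SD, n = 3) at 20 µg/mL of Soshiho-tang and 2.84 ± 0.12 at 500. PLOD2 made up 21 ± 0.86% of the summed PLOD RPKM at 20 µg/mL and 15.1 ± 0.45% at 500. In both measures the groups were apart, at the smallest two-sided p that an exact permutation test of 3 against 3 can give, 0.1 (0.3 adjusted over 15 such tests). LOXL2 made up 69.6 ± 0.35% of the lysyl oxidase RPKM at 20 µg/mL and 69.5 ± 0.43% at 500 (exact permutation p = 0.8), a share that overlapped between the groups. With Yijin-tang, LOXL2's share was 70.0 ± 0.94% at 20 and 67.7 ± 0.26% at 500 µg/mL (exact permutation p = 0.1), with the third library at 67.4% and the others at 67.7 and 67.9%. With Okbyeongpung-san, the P4HA1 to P4HA2 ratio was 5.34 ± 0.069 at 20 and 3.77 ± 0.21 at 500 µg/mL (n = 2, exact permutation p = 0.333, the smallest possible).

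**Figure D2:**
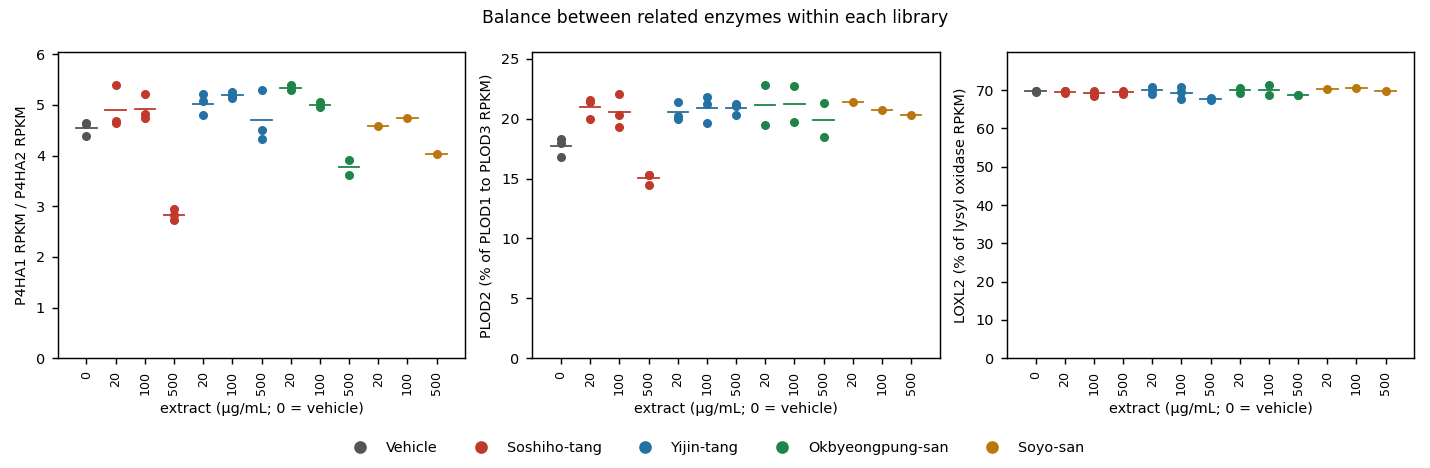
Within-library balance of related enzymes from RPKM (vertical axes from 0: P4HA1 over P4HA2, PLOD2 as % of the 3 lysyl hydroxylases, LOXL2 as % of the 5 lysyl oxidases) by extract and concentration (µg/mL). Points are libraries and bars are group means; the first ratio is lowest at 500 µg/mL of Soshiho-tang (2.72 to 2.95), followed by Okbyeongpung-san at its top concentration (3.62 to 3.92).

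With Yijin-tang 1 gene of the set fell. LOXL2 gave 1111, 1155 and 1105 CPM at 20 µg/mL and 923, 918 and 975 at 500, so all 3 treated libraries were lower, the third least so. The fall was small (log2 -0.26 ± 0.05, adjusted p = 0.0044), and -0.29 without the third library at 500 µg/mL (adjusted p = 0.0046). Among all genes tested, 2.94% fell and 2.7% rose (47.8% of calls higher, or 68.8% with library totals). P4HA1 gave 226, 226 and 226 CPM at 20 µg/mL and 211, 206 and 212 at 500. These groups were apart too, but the difference of -0.11 ± 0.04 missed the threshold with edgeR (adjusted p = 0.088, and 0.1 without the third library) and passed it with DESeq2 (0.0086). The other 8 genes were not called: the log2 differences were -0.13 for LOXL1, -0.09 for PLOD3, -0.07 for PLOD1, -0.07 for LOX, -0.05 for PLOD2, -0.04 for LOXL3, -0.01 for P4HA2 and 0.07 for LOXL4. Groups were also apart for LOXL1 (174.5 to 191.5 CPM at 500 against 192.6 to 200.8 at 20 µg/mL), PLOD3 (286.5 to 289.2 against 301.6 to 312.6) and PLOD1 (534.5 to 559.4 against 565 to 581.2). The share of all genes with groups apart was not counted. Of the 10 members, 3 had an unadjusted p under 0.05 in edgeR's test, as did 3112 of 16872 genes. Without the third library LOXL1 was at -0.17 (adjusted p = 0.054). At 100 against 20 µg/mL, edgeR and DESeq2 called 0 of 10 (0.00593% of all genes passed edgeR's test), and only P4HA1 had an unadjusted p under 0.05 (0.0089), with 254, 246 and 234 CPM at 100 µg/mL.

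With Okbyeongpung-san 1 gene rose between 20 and 500 µg/mL. P4HA2 gave 119 and 117 CPM at 20 µg/mL, 127 and 122 at 100, and 153 and 139.5 at 500. The 500 µg/mL libraries were the highest 2 of the 30 for this gene. It rose by 0.30 ± 0.075 on the log2 scale (adjusted p = 0.029), where 5.21% of all genes tested rose and 5.1% fell, by 0.26 within batch D (replicate 3) and 0.36 within batch E (replicate 2). The call rests on few libraries: it was lost without the replicate 2 library at 500 µg/mL (0.24, adjusted p = 0.13) and without either library at 20 µg/mL (0.11 and 0.099), and also when only the 2 groups compared were fitted (0.21). P4HA1 gave 229 and 229 CPM at 20 and 201 and 199 at 500 µg/mL, PLOD2 335 and 313 then 282 and 282, and LOXL3 29.02 and 30.5 then 23.2 and 25.6. All 3 genes were lower in both batches without passing the test (log2 -0.20, -0.20 and -0.29; adjusted p = 0.082, 0.12 and 0.058). In the 27-library fit they passed it (0.0051, 0.022 and 0.0079). LOXL4, at 2.8 and 2.61 then 2.17 and 1.87 CPM, had the largest difference of the set (-0.42 ± 0.17, adjusted p = 0.15; -0.48 in batch D and -0.37 in E). LOXL2 (-0.19, adjusted p = 0.14) and LOX (-0.18, 0.2) were lower in both batches as well, without passing the test, as were PLOD1 (-0.10) and PLOD3 (-0.08), whose groups overlapped. LOXL1 differed by -0.05 and overlapped too. Mitochondrial counts were 5.68 to 6.8% at 500 µg/mL and 8.11 to 8.36% at 20, and their part in these values was not tested. At 100 against 20 µg/mL, edgeR called 0 of 10 (0% of all 16643 genes tested, of which 154 had an unadjusted p under 0.05), DESeq2 called 0 and no member had an unadjusted p under 0.05.

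Soyo-san, with 1 library per concentration, allows no test. None of the 10 genes differed by 1.5-fold between 500 and 20 µg/mL, where 1.47% of 17396 genes did. On the log2(CPM + 1) scale the ratios ran from -0.20 for LOX (105 against 121 CPM) to 0.09 for P4HA2 (137 against 129 CPM). P4HA1 stood at 202 and PLOD2 at 287 CPM at 500 µg/mL, against 215 and 311 at 20.

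**Figure D3:**
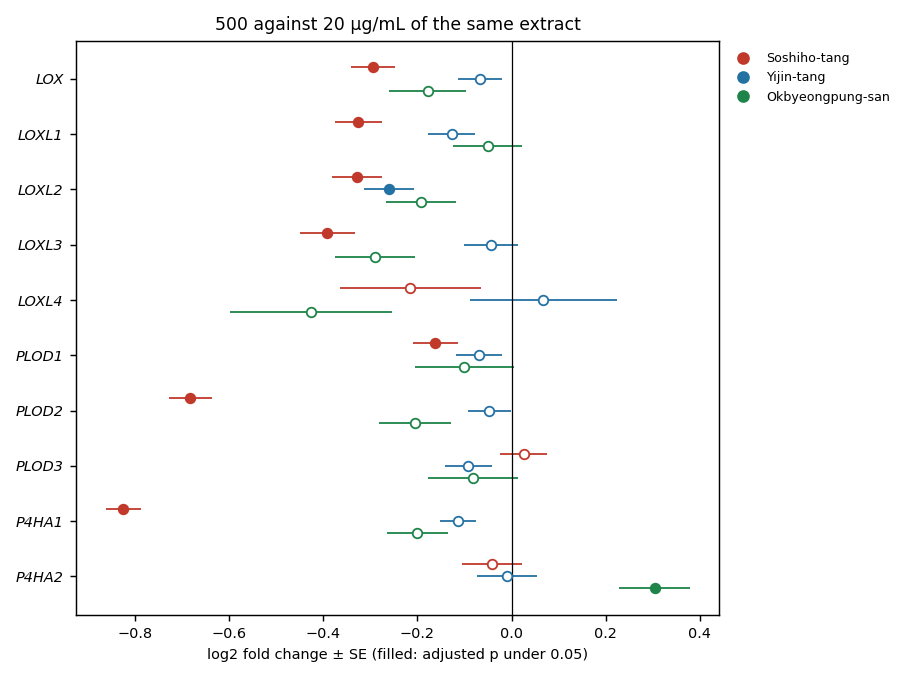
Log2 fold change ± SE of each gene at 500 against 20 µg/mL (horizontal axis) for the 3 extracts with replicates; filled points passed the test. Soshiho-tang lies furthest left for P4HA1 (-0.82) and PLOD2 (-0.68), and the 1 filled point right of 0 is P4HA2 with Okbyeongpung-san (0.30).

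Set against each other at 500 µg/mL, Soshiho-tang gave lower levels than Yijin-tang for 6 of the 10 genes and higher for none, against 12.8% lower and 12.5% higher of all genes tested. P4HA1, at 124, 118 and 119 CPM with Soshiho-tang, was at 211, 206 and 212 with Yijin-tang (log2 -0.80 ± 0.04, adjusted p = 1e-12). PLOD2, at 203, 189 and 193 CPM, was at 320, 309 and 300 with Yijin-tang (log2 -0.67 ± 0.05, adjusted p = 3.6e-10). The 2 extracts did not overlap for either gene. LOXL3, at 20.8 to 22.3 against 29.3 to 30.03 CPM, came next (log2 -0.45 ± 0.06, adjusted p = 3.4e-06). LOXL1 (-0.27 ± 0.05), LOX (-0.23 ± 0.05) and PLOD1 (-0.17 ± 0.05) were also called, the last with an adjusted p of 0.011 that became 0.077 without the third Soshiho-tang library. LOXL2, which fell with both extracts, differed by -0.15 ± 0.05 (adjusted p = 0.05, not called). PLOD3, P4HA2 and LOXL4 were not called, with differences of 0.04, -0.08 and 0.04. Without the third Yijin-tang library the count was again 6, and P4HA1 differed by -0.79. P4HA1, PLOD2, LOXL3, LOXL1 and LOX were called in all 13 alternative runs, the run without that library among them.

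At the lower concentrations edgeR called no member between these 2 extracts: 0 of 10 genes passed at 100 µg/mL (0.753% of all genes) and 0 at 20 µg/mL (0.13%). Of the members, 2 had an unadjusted p under 0.05 at each of these concentrations, and DESeq2 called 1 at 100 µg/mL, P4HA1 (-0.14, adjusted p = 0.0022). The difference of the dose effects was tested directly. It was called for 4 genes, all lower with Soshiho-tang (6.99% of all genes): P4HA1 (-0.71 ± 0.05, adjusted p = 6e-09), PLOD2 (-0.64 ± 0.07, 5e-07), LOXL3 (-0.35 ± 0.08, 0.0054) and LOX (-0.23 ± 0.07, 0.024). The call for LOX was lost without any of 5 single libraries, with adjusted p-values of 0.053 to 0.082, the third Yijin-tang library at 500 µg/mL among them (0.061). For LOXL2 the difference of the dose effects was -0.07 ± 0.08 (adjusted p = 0.66).

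Okbyeongpung-san libraries came from other library sets than those of Soshiho-tang and Yijin-tang, so at 1 concentration the extract and the set cannot be told apart. At 500 µg/mL, 6 of the 10 genes were higher than with Soshiho-tang (9.94% of 17396 genes): P4HA1 by 0.73 ± 0.04, PLOD2 by 0.53 ± 0.06, P4HA2 by 0.32 ± 0.07, LOXL1 by 0.31 ± 0.06, LOXL2 by 0.20 ± 0.06 and LOX by 0.17 ± 0.06. LOXL3 (0.17), PLOD1 (0.10), PLOD3 (-0.02) and LOXL4 (-0.41 ± 0.17, adjusted p = 0.11) were not called. P4HA1 was at 201 and 199 CPM against at most 124, and P4HA2 at 153 and 139.5 against at most 121, with no overlap. The call for LOX ended with the replicate number as a block (adjusted p = 0.054). In this comparison that number marks the batch for Okbyeongpung-san only, since all Soshiho-tang libraries were batch E by label. The calls for LOX and LOXL2 also ended without any of several single libraries. Over 11 alternative runs LOX was called in 3 and LOXL2 in 6. P4HA2 was not called without the replicate 2 library of Okbyeongpung-san (adjusted p = 0.063). With library totals, 41.1% of all called genes were higher in place of 54.4%. No gene of the set was called at 100 µg/mL (0.552% of all genes) or at 20 µg/mL (0.144%) by edgeR or DESeq2, though 1 had an unadjusted p under 0.05 at each.

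A constant offset between library sets cancels in the difference of the dose effects. Between Okbyeongpung-san and Soshiho-tang it was called for 4 genes (4.25% of all genes were higher): P4HA1 (0.63 ± 0.06, adjusted p = 3.5e-07), PLOD2 (0.48 ± 0.08, 0.00029), P4HA2 (0.35 ± 0.10, 0.034) and LOXL1 (0.28 ± 0.08, 0.035). P4HA1 and PLOD2 were called again without any single library, whereas P4HA2 and LOXL1 each lost the call without 7 different ones. Against Yijin-tang at 500 µg/mL, P4HA2 was higher by 0.25 ± 0.07 (adjusted p = 0.014, 11.4% of all genes higher) and LOXL3 was lower (-0.28 ± 0.07, adjusted p = 0.0034, 10.3% lower). Neither was called without the replicate 2 library of Okbyeongpung-san (0.21 and 0.11), and P4HA2 was not called without the third Yijin-tang library either (0.086). The difference of the dose effects was called for P4HA2 (0.32 ± 0.10, adjusted p = 0.045, 5.59% of all genes higher) and was lost without any of 6 single libraries. At 100 µg/mL 0 of 10 were called (0.207% of all genes, 2 members at an unadjusted p under 0.05, 1 by DESeq2), and at 20 µg/mL 0 of 10 (0%, with 1512 genes and no member at an unadjusted p under 0.05, and 0 members by DESeq2).

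**Figure D4:**
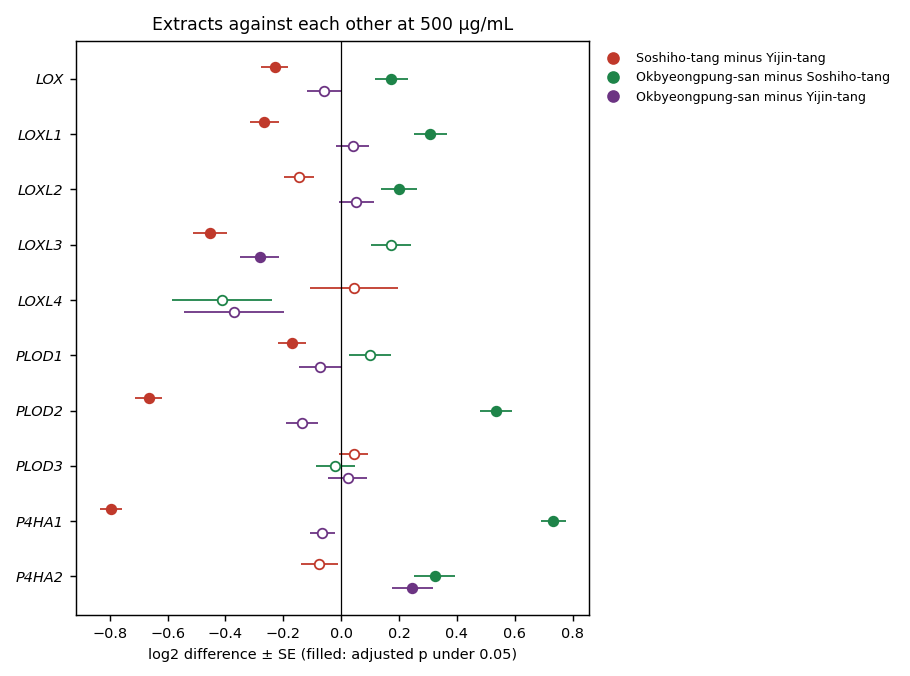
Log2 difference ± SE between extracts at 500 µg/mL for each gene (horizontal axis); filled points passed the test. P4HA1 and PLOD2 are lower with Soshiho-tang than with Yijin-tang (-0.80 and -0.67) and higher with Okbyeongpung-san than with Soshiho-tang (0.73 and 0.53), while P4HA2 with Okbyeongpung-san lies right of 0 against both others.

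Against the vehicle-treated cells, treatment and library set cannot be told apart. Soshiho-tang at 500 µg/mL was lower for 9 of the 10 genes, all but LOXL4 (21.1% of all genes were lower): P4HA1 by 0.87 ± 0.04, PLOD2 by 0.59 ± 0.05, LOXL1 by 0.57 ± 0.05, LOXL3 by 0.52 ± 0.06, LOXL2 by 0.47 ± 0.05 and PLOD1 by 0.38 ± 0.05 on the log2 scale. The calls for P4HA2 (-0.18), PLOD3 (-0.17) and LOX (-0.14) were lost with library totals, which moved the median of all genes up by 0.11 and gave 71% of calls higher in place of 52%. They were also lost without single libraries: P4HA2 without any of 4 (adjusted p = 0.051 to 0.095), LOX without vehicle replicate 2 (0.11) or Soshiho-tang replicate 2 (0.074), and PLOD3 without vehicle replicate 1 (0.055). LOX was not called without the filter on low counts either (0.11). Already at 20 µg/mL, 3 genes were lower than vehicle (LOXL1, PLOD1 and PLOD3, where 10.5% of all genes were lower) and LOX was higher (11.3% higher). The call for LOX ended without any of 3 single libraries (adjusted p = 0.088 to 0.11), and it was kept in 8 of 13 alternative runs. P4HA1 was not called here, with 220, 222 and 218 CPM in vehicle and 213, 214 and 213 at 20 µg/mL. Yijin-tang at 500 µg/mL was lower for LOXL2 (-0.32), LOXL1 (-0.31), PLOD3 (-0.22) and PLOD1 (-0.21), where 15.2% of all genes were. Without the third library these were -0.35, -0.35, -0.22 and -0.21, and 4 members were again called. At 20 µg/mL it was lower for LOXL1 and PLOD1 (9.2% of all genes) and higher for LOX (10.6%). The count of 3 became 0 without the replicate 2 library at 20 µg/mL.

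In the Okbyeongpung-san libraries at 500 µg/mL, levels were lower than in vehicle for LOXL3 (-0.33 ± 0.08), LOXL1 (-0.25 ± 0.07) and LOXL2 (-0.25 ± 0.07), where 11.4% of all genes were lower. All vehicle libraries were batch E by label, so the replicate number does not mark the batch in this comparison. With that number as a block, only LOXL3 was called, the adjusted p being 0.059 for LOXL1 and 0.06 for LOXL2. Without the replicate 2 library at 500 µg/mL none of the 3 was called (0.077 to 0.1), and without vehicle replicate 1 or 2 only LOXL3 was. At 20 µg/mL, 0 of 10 genes were called by edgeR or DESeq2 (2.24% of all genes by edgeR), and 3 had an unadjusted p under 0.05.

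The collagens on which these enzymes act fell with Soshiho-tang as well. At 500 against 20 µg/mL, 10 of 12 fibrillar collagen and elastic fibre genes fell and none rose, with a median of -0.63: COL1A2 by 1.04 ± 0.06, COL3A1 by 1.02 ± 0.07, COL1A1 by 0.91 ± 0.06 and COL5A1 by 0.87 ± 0.05. Of 9 tested genes for procollagen processing and other crosslinking, 6 fell and none rose (median -0.19). The largest falls were those of ADAMTS3 (-0.86 ± 0.30), TLL1 (-0.65 ± 0.08), the N-propeptidase ADAMTS2 (-0.57 ± 0.05) and the transglutaminase TGM2 (-0.33 ± 0.05). Of 8 partners of the prolyl hydroxylases and prolyl 3-hydroxylases, the 2 that fell were P3H2 (-0.40 ± 0.05) and P3H1 (-0.23 ± 0.05), both enzymes of prolyl 3-hydroxylation. Among 11 genes of collagen glycosylation, folding and export, 5 fell and 2 rose, led by CREB3L1, a transcription factor of collagen secretion (-0.71 ± 0.07), and TMEM38B, an endoplasmic reticulum cation channel (0.36 ± 0.05). Over all genes tested 14.2% fell and 14.6% rose, with a median of 0.01. The 2 of 8 falls and the 2 of 11 rises in the last lists are near those shares.

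Genes linked to the regulation and the cofactors of these enzymes moved in both directions. Of 13 hypoxia-inducible genes outside the set, 10 fell and 3 rose with Soshiho-tang (median -0.69), the falls led by EGLN3, an oxygen-sensing prolyl hydroxylase (-1.94 ± 0.15), BNIP3 (-1.04 ± 0.07), the glucose transporter SLC2A1 (-0.96 ± 0.05) and the carbonic anhydrase CA9 (-0.93 ± 0.08). Of 10 TGF-beta targets, 8 fell and none rose (median -0.38), among them CCN2 (-0.76 ± 0.07) and PMEPA1 (-0.59 ± 0.045). Of 11 tested genes for iron, 2-oxoglutarate, ascorbate and copper supply, 5 rose and 4 fell. The ferritin chain FTH1 rose by 1.10 ± 0.08, OGDH by 0.50 ± 0.06 and SLC11A2 by 0.40 ± 0.05. IDH2, which makes 2-oxoglutarate, fell (-0.39 ± 0.06). Over all genes tested 14.2% fell and 14.6% rose. These lists were chosen with earlier results of these data known, so their counts are descriptions.

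The same lists are given for the other extracts, with which fewer genes were called over the whole table (2.94% fell and 2.7% rose with Yijin-tang, 5.1% and 5.21% with Okbyeongpung-san, against 14.2% and 14.6% with Soshiho-tang). The differences between extracts in these counts were not tested. For Yijin-tang at 500 against 20 µg/mL, 2 of 12 substrate genes fell (COL3A1 by 0.30 ± 0.06 and COL1A2 by 0.26 ± 0.06), 3 of 9 processing genes fell, led by ADAMTS14 (-0.51 ± 0.08), and 1 of 13 hypoxia genes fell, LDHA (-0.17 ± 0.05). Of its TGF-beta targets 2 of 10 fell, CCN2 by 0.44 ± 0.07 and PMEPA1 by 0.18 ± 0.05, and none of the 8 prolyl hydroxylase partners was called. Of 11 folding and export genes 2 rose, MIA3 (0.23 ± 0.06) and TMEM38B (0.20 ± 0.05). Of 11 tested supply genes 1 rose, OGDH (0.33 ± 0.06). Without the third library at 500 µg/mL the processing count was 2 and the substrate, hypoxia and TGF-beta counts were 2, 1 and 2. The folding and supply counts were then 1 and 1. For Okbyeongpung-san, 6 of 12 substrate genes fell, among them COL11A1 (-0.65 ± 0.12), POSTN (-0.49 ± 0.08) and COL3A1 (-0.48 ± 0.08). Of the 13 hypoxia genes none fell and 3 rose with this extract: NDRG1 by 1.45 ± 0.08, ADM by 0.55 ± 0.10 and BNIP3 by 0.32 ± 0.08. Of 11 tested supply genes, FTH1 rose here too (1.05 ± 0.14) and IDH2 fell (-0.384 ± 0.105). Of 11 folding and export genes, CREB3L1 fell (-0.635 ± 0.093) and MIA2 rose (0.253 ± 0.069). Of 9 processing genes 1 fell, ADAMTS3 (-1.552 ± 0.265), and of 10 TGF-beta targets 1 fell, CCN2 (-0.30 ± 0.08). None of the 8 prolyl hydroxylase partners was called. Between Soshiho-tang and Yijin-tang at 500 µg/mL, 9 of 12 substrate genes, 8 of 13 hypoxia genes and 8 of 10 TGF-beta targets were lower, and 0, 2 and 0 were higher. Over all genes tested 12.8% were lower and 12.5% higher. Without the third Yijin-tang library 8, 8 and 7 were lower and 0, 1 and 0 higher. COL1A1 differed by -0.79 ± 0.06 and EGLN3 by -1.88 ± 0.15.

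The member whose level most resembled that of P4HA1 over the 13 groups was PLOD2. Over the group means of log2(CPM + 1), Pearson's r between them was 0.984, the highest that either gene had with any of 9804 genes, and LDHA, lactate dehydrogenase A and a hypoxia-inducible gene, came next for both (0.973 with P4HA1 and 0.98 with PLOD2). The points share libraries and scaling, and the groups are not independent of each other. The likeness leaned on 1 group: without Soshiho-tang at 500 µg/mL, r was 0.876 between P4HA1 and PLOD2, below that of LDHA with either (0.901 and 0.915), and for ARL6IP1, the third gene on both lists, it dropped from 0.956 to 0.568 with P4HA1 and from 0.949 to 0.577 with PLOD2. LOX was most like GPX8 (0.97), MAT2A (0.944) and BDNF (0.941), LOXL1 like HDAC7 (0.956), TGFBI (0.939) and FIBCD1 (0.937), and LOXL2 like SH3BP4 (0.976), LZTS1 (0.948) and ZNF703 (0.938). LOXL3 was most like NXN (0.973), TFAP2A (0.968) and GNAO1 (0.957), and PLOD1 like RAB5C (0.953), FIBCD1 (0.951) and RBPMS (0.938). P4HA2 and PLOD3 had weaker leading partners, MSRB1 (0.902) and NCKAP5L (0.918), and LOXL4 the weakest, POLR1E (0.855). Among the members themselves the next closest pair was LOXL1 and PLOD1 (0.89). Without Soshiho-tang at 500 µg/mL the closest were PLOD1 with PLOD3 (0.94) and LOXL1 with PLOD3 (0.93). Vehicle, a library set of its own, was the highest group for LOXL1, PLOD1 and PLOD3. Its means were 223, 635 and 334 CPM, against at most 197, 594 and 311 in any other group. Correlations without vehicle were not computed.

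**Figure D5:**
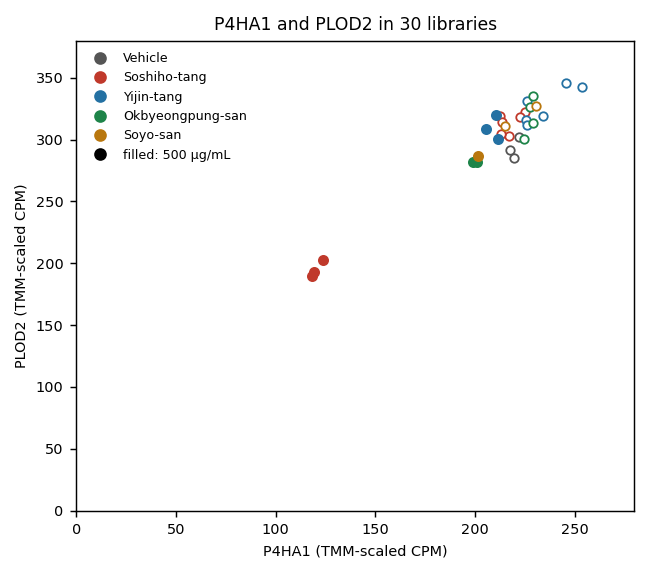
TMM-scaled CPM of PLOD2 (vertical axis) against P4HA1 (horizontal axis) in the 30 libraries, both axes from 0, with filled points for 500 µg/mL. The 3 libraries of Soshiho-tang at 500 µg/mL lie at 118 to 124 CPM of P4HA1, and every other library lies at 199 CPM or more.

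Some members overlap other annotated genes, and the strand setting of the counting is not given in the sources used here. LOXL1 shares 335 exon bases with the antisense gene LOXL1-AS1 (15 to 31.5 CPM), which fell with Soshiho-tang by 0.72 ± 0.07. LOXL3 shares 625 exon bases with HTRA2 (21.7 to 30.5 CPM) on the opposite strand, a level near its own. HTRA2 rose by 0.26 ± 0.06 where LOXL3 fell by 0.39. LOX shares 138 exon bases with SRFBP1 (16.1 to 24.9 CPM), which rose by 0.50 ± 0.07, and PLOD3 shares 429 with ZNHIT1 (53.3 to 78.8 CPM), which was not called (-0.03 ± 0.06). LOXL2 shares 120 with ENTPD4 on its own strand (112 to 138 CPM, 0.05 ± 0.05). A second neighbour of LOXL3, DOK1 (216 shared bases, 16.5 to 31.9 CPM), rose by 0.75 ± 0.10 with Okbyeongpung-san. P4HA1 shares exon bases only with a gene at 0 CPM in every library, and PLOD2 shares none. The part of these overlaps in the members' values was not tested.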

How the data were processed

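The authors deposited 1 table of estimated (expected) counts per gene for 30 mRNA libraries made with a directional kit and sequenced as paired-end reads, per the labels. FastQC 0.11.9, Trim Galore 0.6.5, STAR 2.7.3a and RSEM 1.3.3 are named, with the hg38 build, in the submitters' processing notes; the annotation release and the strand setting are not given in the sources used here. The table also held 30 blank columns, which were left out. Between 9.24 and 10.73% of the deposited expected counts in a library were not whole and were rounded. Of 60675 entries, 57055 matched GENCODE release 29, which gave coordinates and exon lengths.

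TMM factors over all 30 libraries gave CPM, and CPM per kilobase of exon gave RPKM, which is used only between genes. Tests used edgeR 4.0.16 (R 4.3.3, limma 3.58.1; filterByExpr set to at least 10 counts and a summed count of 15; quasi-likelihood F test, Benjamini-Hochberg adjustment, threshold 0.05) on 21 libraries (vehicle, Soshiho-tang, Yijin-tang), 9 (vehicle, Okbyeongpung-san) or 27 (Okbyeongpung-san against the others). SE is the log2 fold change divided by the square root of F. Alternatives were RLE factors, library totals, DESeq2 1.42.0, no filter, only the groups compared, the 27-library fit, the replicate number as a block and leaving out each library; the gene lists without the third Yijin-tang library at 500 µg/mL were added after seeing the data. The fitting was tested on simulated data. For Okbyeongpung-san the replicate number marks the batch by label. Its same-numbered libraries of different concentrations deviated together (correlations of 0.173, 0.208 and 0.531). With 2 libraries per group, both replicate numbers give the same correlation by construction, so each value counts once. For Soshiho-tang and Yijin-tang 12 of 45 such pairs exceeded 0.1, so they were not taken as pairs.

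The members and gene lists were chosen with earlier results of these data known. All 10 members are named in each tested comparison of 500 with 20 µg/mL, a narrower use of the rule that names them in every comparison; elsewhere some members that were not called are given by count only. The list genes named come from the up to 4 called genes with the largest change in each list, not all of which are named. For likeness the genes named come from the 3 with the highest correlation.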

Additional observations from a re-analysis of the deposited data

Results flagged for a closer look

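The effect of 500 against 20 µg/mL differed between extracts in 9 cases by the test of the difference itself (edgeR, adjusted over all genes), with 10 members tested in each contrast. Between Soshiho-tang and Yijin-tang the log2 difference of the effects was -0.71 for P4HA1, -0.64 for PLOD2, -0.35 for LOXL3 and -0.23 for LOX (6.99% of all genes were lower). Between Okbyeongpung-san and Soshiho-tang it was 0.63 for P4HA1, 0.48 for PLOD2, 0.35 for P4HA2 and 0.28 for LOXL1 (4.25% of all genes were higher). Between Okbyeongpung-san and Yijin-tang it was 0.32 for P4HA2 (5.59% higher). The calls for LOX, LOXL1 and P4HA2 were each lost without any of several single libraries. These contrasts share the Soshiho-tang, Yijin-tang or Okbyeongpung-san libraries among them.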

How the results depend on the processing

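No member changed direction among the called values under any alternative run: of 3030 member values, 620 were called in both fits, 2274 in neither, 104 lost the call and 32 gained it. Among those called in neither, 74 had the opposite sign. Leaving out 1 library accounted for 71 of the losses. Where counts moved, the cause was not tested.

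Genes called over the whole table moved as follows. With no filter on low counts there were 44 (from 0) for Okbyeongpung-san 100 against 20 µg/mL, 2604 (from 1716) for 500 against 20, 1442 (from 372) for 20 against vehicle, 518 (from 96) and 251 (from 25) against Soshiho-tang at 100 and 20, and 1191 (from 36) and 324 (from 0) against Yijin-tang at 100 and 20. For Soshiho-tang 100 against 20 there were 101 (from 12), against Yijin-tang 396 (from 127) at 100 and 252 (from 22) at 20, and for Yijin-tang 100 against 20 there were 67 (from 1). DESeq2 gave 775 for Okbyeongpung-san 20 against vehicle, 150 and 56 against Soshiho-tang at 100 and 20, 347 and 1 against Yijin-tang at 100 and 20, 56 between Soshiho-tang and Yijin-tang at 20 and 8 for Yijin-tang 100 against 20. Fitting only the groups compared gave 797 for Okbyeongpung-san 20 against vehicle, 523 for 500 against 20, 29, 2 and 2065 against Soshiho-tang at 100, 20 and 500, 0 and 1571 against Yijin-tang at 100 and 500, 3 for Soshiho-tang 100 against 20, 46 and 6 between Soshiho-tang and Yijin-tang at 100 and 20, 0 for Yijin-tang 100 against 20 and 308 (from 951) for 500 against 20. The 27-library fit gave 2162 for Okbyeongpung-san 20 against vehicle, 3082 for 500 against 20 and 7 for Soshiho-tang 100 against 20. Library totals gave 587 for Okbyeongpung-san 20 against vehicle and 0 for Yijin-tang 100 against 20.

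Leaving out 1 library gave 0 to 1 genes for Okbyeongpung-san 100 against 20, 9 to 26 for 20 against vehicle, 630 to 1966 for 500 against 20 and 2228 to 3869 (from 4113) for 500 against vehicle. Against Soshiho-tang it gave 29 to 346 at 100, 6 to 25 at 20, 1811 to 3276 (from 3181) at 500 and 801 to 1786 (from 1292) for the difference of the dose effects. Against Yijin-tang it gave 0 to 1080 at 100, 0 to 2 at 20, 2133 to 3989 (from 3778) at 500 and 1148 to 2087 (from 1862) for that difference. It gave 3 to 7 for Soshiho-tang 100 against 20, 61 to 124 and 8 to 38 between Soshiho-tang and Yijin-tang at 100 and 20, 0 to 1 for Yijin-tang 100 against 20, 2081 to 2822 (from 3338) for 20 against vehicle and 505 to 1057 for 500 against 20. Where 1 library was left of a group, it was assumed to vary like the others.

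Members called moved in fewer comparisons. Their counts are given without the share of all genes in the same run and are descriptions. For Okbyeongpung-san 500 against 20 the count of 1 became 2 with DESeq2, 4 in the 27-library fit, 0 with only the groups compared and 0 to 2 without 1 library. Against vehicle the count of 3 became 7 in the 27-library fit, 1 with library totals and 0 to 4 without 1 library, and at 20 µg/mL the 27-library fit gave 2. In that fit the genes called over the whole table also rose for Okbyeongpung-san 500 against 20 and 20 against vehicle, as given above. Against Yijin-tang at 500 the count of 2 became 1 with library totals, 0 with only the groups compared and 0 to 2 without 1 library, and at 100 DESeq2 gave 1. For the difference of the dose effects the count of 1 against Yijin-tang became 0 with library totals or no filter and 0 to 1 without 1 library, and the count of 4 against Soshiho-tang became 2 to 3. DESeq2 gave 1 between Soshiho-tang and Yijin-tang at 100 and 2 for Yijin-tang 500 against 20. For Yijin-tang 20 against vehicle the count of 3 became 1 in the 27-library fit or with no filter and 0 to 2 without 1 library.

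With the replicate block, 40 genes were called for Okbyeongpung-san 20 against vehicle (from 372) and 1 member for 500 against vehicle (from 3). This block pairs the Okbyeongpung-san libraries with each other by batch, but not with vehicle, whose libraries were all batch E by label. Over all member values the replicate block ended 3 calls and added 1. In the Soshiho-tang and Yijin-tang libraries, where the numbers pair nothing by label, it left 7 members called for Soshiho-tang 500 against 20.

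With library totals the share of higher calls became 72.3% (from 51.3%) for Yijin-tang 500 against vehicle, 74.4% (from 51.8%) and 70.2% (from 53.5%) for Soshiho-tang and Yijin-tang 20 against vehicle, 68.0% (from 53.7%) and 71.2% (from 52.7%) for Okbyeongpung-san 500 and 20 against vehicle, and 43.4% (from 57.3%) and 42.3% (from 52.3%) for the difference of its dose effect from those of Soshiho-tang and Yijin-tang. Depth limits LOXL4, which lay between 1.87 and 3.53 CPM.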
